A study of Mus musculus with 11 samples.

Results

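The 9 macrophage-linked genes described across the lymphomas were C1qa, C1qb, Csf1r, Cd68, Hmox1, Slc40a1, Cd14, Cd5l and Marco. They were chosen by name, and every probe set of the array annotated to only 1 of them was taken, which gave 14 probe sets of 9 genes among 22626 probe sets and 12393 genes. The samples were B cell lymphomas of mice carrying the E-mu-BRD2 transgene on the FVB background. This transgene places the bromodomain protein BRD2 under the immunoglobulin heavy chain enhancer, which is active in B cells. The labels divide the tumours by severity into a marginal class of 6 and a transitional class of 5, with 1 array for each tumour, and all carry the transgene. All are labelled oligoclonal. The labels give neither the ages of the animals nor the tissue the RNA came from.

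The degree of spleen enlargement was recorded for each animal and was ranked here from 1 to 5. Within the marginal class it was marginal (rank 1) for tumour 1, mild (rank 2) for tumours 2, 3 and 4, and moderate (rank 3) for tumours 5 and 6. Within the transitional class it was severe (rank 5) for tumours 1 and 2, mild for tumour 3, and moderately severe (rank 4) for tumours 4 and 5. The mild grade alone held tumours of both classes, so class and grade overlapped only in part. The clinical sign was failure to nest for all transitional tumours and for marginal tumours 2 and 3. It was a neck, leg or haunch tumour for marginal tumours 1, 4 and 5, and paralysis for marginal tumour 6. Class and clinical sign thus cannot be fully told apart. Values are MAS5 signals, the Affymetrix measure of a probe set's brightness on a linear scale, and they cannot be compared between probe sets as amounts of RNA. The median signal of an array ran from 99.7 to 151.9, and the 3-prime to 5-prime signal ratio of Actb, a measure of RNA integrity, from 1.11 to 1.44.

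Tissue macrophages take up dying cells and aged red cells, and the genes described here serve several steps of that work. C1qa and C1qb encode chains of C1q, the recognition subunit of the first complement component, which macrophages rather than hepatocytes mainly produce. Csf1r is the receptor through which CSF1 maintains macrophages, and Cd68 is a lysosomal membrane glycoprotein of phagocytes. Hmox1 breaks down haem and Slc40a1, ferroportin, exports the iron that is released, a pair of steps at which spleen red pulp macrophages are specialised. Cd14 is a co-receptor for lipopolysaccharide, Cd5l a secreted scavenger receptor-like protein, and Marco a class A scavenger receptor that marks macrophages of the splenic marginal zone.

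The C1q chains were brightest by far on the array of transitional tumour 2. For C1qa the signals were 128, 8059.6, 333, 565 and 596 in transitional tumours 1 to 5, against 188 at the lowest, 244 at the median and 1203 at the highest in the marginal class. The signal of transitional tumour 2 was 6.70 times that of the next array, marginal tumour 2, and 27.1 times the median of the other 10. The classes overlapped, since transitional tumour 1, also from a severely enlarged spleen, gave the lowest C1qa signal of all. The class means were 408 ± 394 (SD, n = 6) in the marginal and 1936 ± 3428 (SD, n = 5) in the transitional class. On the log2 scale the transitional class was 1.02 higher (SE 0.85, limma adjusted p = 0.999), so the difference did not exceed the spread between tumours. Without transitional tumour 2 the difference was 0.12 (SE 0.55). In tumour RNA, fewer cells of a type and less RNA per cell cannot be told apart, and this holds for each gene below.

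C1qb was read by 3 probe sets that ranked the arrays alike at the top. The brightest of them gave 178, 3044, 404, 310.0 and 523 in transitional tumours 1 to 5 and ran from 210.2 to 643 in the marginal class, with a median of 304. Transitional tumour 2 was highest and marginal tumour 2 next on all 3 C1qb probe sets, as for C1qa. The other 2 C1qb probe sets read 4922 and 4499 on transitional tumour 2 and 1096 and 1038 on marginal tumour 2. The class differences of the 3 probe sets were 0.67 (SE 0.59), 1.18 (SE 0.77) and 1.19 (SE 0.80) on the log2 scale, each with a limma adjusted p of 0.999. Without transitional tumour 2 they were 0.04, 0.43 and 0.42. Of the 3, 2 carry the suffix that Affymetrix gives to probes with possible cross-hybridisation, but correlations among the 3 over the arrays were 0.910 to 0.970.

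**Figure D1:**
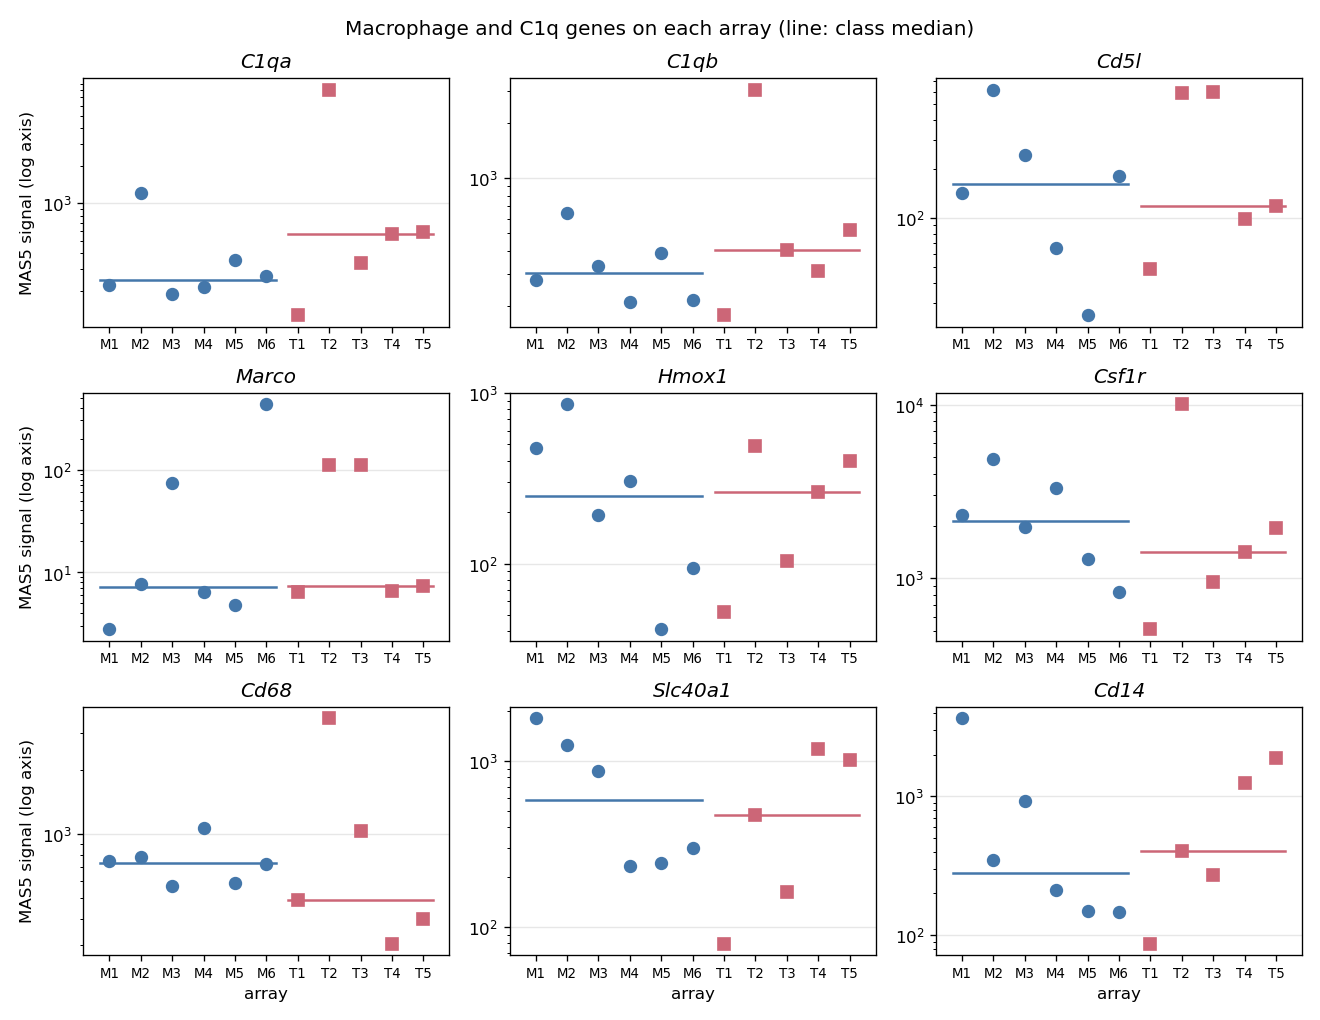
MAS5 signal (log axis) of the 9 genes on each of the 11 arrays, 1 panel for each gene and its brightest probe set, with marginal tumours (M1 to M6) and transitional tumours (T1 to T5) in different colours and the class median as a line. C1qa reaches 8059.6 and Csf1r 10089 on transitional tumour 2, whereas Cd14 and Slc40a1 are highest on marginal tumour 1 and Marco on marginal tumour 6.

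The CSF1 receptor and the lysosomal marker Cd68 were also highest on transitional tumour 2. The brightest Csf1r probe set gave 508, 10089, 946, 1421 and 1951 in transitional tumours 1 to 5, and 837 at the lowest, 2141 at the median and 4835 at the highest in the marginal class. As for C1qa and the brightest C1qb probe set, marginal tumour 2 came second and transitional tumour 1 last. However, 4 of the 6 marginal tumours lay above transitional tumours 1, 3 and 4. The transitional class was 0.29 lower (SE 0.67, limma adjusted p = 0.999), and 0.94 lower (SE 0.50, adjusted p = 0.877) without transitional tumour 2. The other 2 Csf1r probe sets differed by -0.15 (SE 0.56) and 0.07 (SE 0.65) with all arrays, and by -0.65 and -0.52 without that tumour. Their signals on transitional tumour 2 were 1771 and 2259.

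Cd68 was even across the marginal class, from 567.6 to 1072 with a median of 731. In transitional tumours 1 to 5 it read 488, 3515, 1038, 305 and 399, so that class held both its highest and its lowest arrays. The SD of its log2 signal was 0.32 in the marginal and 1.40 in the transitional class. The transitional tumour 2 signal was 3.28 times the next, marginal tumour 4. The class difference was 0.03 (SE 0.52, limma adjusted p = 0.999), and without transitional tumour 2 it was -0.53 (SE 0.32, adjusted p = 0.877).

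Promoter sequences are shown for a pair of genes that shared their peak on transitional tumour 2, C1qb and Cd68, and for Marco, whose signals followed another order. PU.1, the product of Spi1, is a factor that macrophage genes are known to depend on, and it binds a purine-rich core, here searched as GAGGAA on both strands. Each window of RefSeq assembly GRCm38.p6 holds 250 bases before and 50 after the gene's start, written 5′ to 3′ on the gene's strand, with matches of the motif or of its reverse complement TTCCTC in capitals. The windows lie at chr4:136886151-136886450 (minus strand) for C1qb, chr11:69666121-69666420 (minus strand) for Cd68 and chr1:120504975-120505274 (minus strand) for Marco.
C1qb: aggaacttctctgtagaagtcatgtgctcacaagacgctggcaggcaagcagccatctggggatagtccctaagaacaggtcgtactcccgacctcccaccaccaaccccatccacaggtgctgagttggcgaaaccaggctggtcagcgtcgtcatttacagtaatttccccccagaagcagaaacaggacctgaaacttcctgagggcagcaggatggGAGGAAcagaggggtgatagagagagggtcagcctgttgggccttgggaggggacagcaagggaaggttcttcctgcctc
Cd68: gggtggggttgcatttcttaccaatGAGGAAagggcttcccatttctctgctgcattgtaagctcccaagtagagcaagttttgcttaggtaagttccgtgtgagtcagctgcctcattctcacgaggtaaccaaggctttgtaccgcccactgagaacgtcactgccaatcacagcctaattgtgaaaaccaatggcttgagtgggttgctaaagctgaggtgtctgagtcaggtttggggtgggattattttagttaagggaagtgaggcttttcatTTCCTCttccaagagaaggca
Marco: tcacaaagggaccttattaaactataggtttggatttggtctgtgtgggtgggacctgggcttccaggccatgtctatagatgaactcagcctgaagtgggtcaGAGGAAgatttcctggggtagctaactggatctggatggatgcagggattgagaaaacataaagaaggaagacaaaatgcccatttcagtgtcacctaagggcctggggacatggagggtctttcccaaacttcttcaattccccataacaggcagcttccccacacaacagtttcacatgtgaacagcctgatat
The C1qb and Marco windows held 1 match each and the Cd68 window 2. Of 32851 promoters in the table, 28.3% held the motif, so a match is common and is given as a description of the sequence. Spi1 itself was not highest where C1q was: it read 751 on transitional tumour 2 and 2007 on marginal tumour 1, its brightest array.

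The enzyme and the exporter of haem iron recycling did not have their highest array in transitional tumour 2. Hmox1 ran from 41.1 to 862 in the marginal class, with a median of 249, and read 51.7, 491, 103, 261 and 396 in transitional tumours 1 to 5. Marginal tumour 2 was highest, transitional tumour 2 next and marginal tumour 5 lowest, and the classes overlapped. The same 2 arrays led for C1q and Csf1r, in the opposite order. Its class difference was -0.14 (SE 0.72, limma adjusted p = 0.999).

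Slc40a1 was read by 2 probe sets that correlated at 0.963. The brighter gave 79.5, 474, 163, 1185 and 1013 in transitional tumours 1 to 5, and 234 at the lowest, 587 at the median and 1818 at the highest in the marginal class. Marginal tumour 1, transitional tumours 4 and 5 and marginal tumour 2 were the 4 brightest arrays, and transitional tumour 1 was the dimmest. Transitional tumour 2, which led for C1q, was in the middle. The class differences of the 2 probe sets were -0.56 (SE 0.75) and -0.60 (SE 0.78), with limma adjusted p = 0.999. For the brighter, leaving out 1 tumour moved the difference between -0.95 (without transitional tumour 4) and -0.039 (without transitional tumour 1).

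Cd14 had the widest spread of the tested probe sets described here, with an SD of 1.65 over the arrays on the log2 scale. Its signals in marginal tumours 1 to 6 were 3669.9, 348, 926, 212, 150.3 and 146, and in transitional tumours 1 to 5 they were 87.0, 406, 270.1, 1243 and 1878. Marginal tumours 1 and 3 and transitional tumours 4 and 5 were high and the other 7 arrays lay at 406 or below, so high and low tumours occurred in both classes. The transitional class was 0.15 higher (SE 0.91, limma adjusted p = 0.999).

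The same 4 tumours carried the largest signals of granulocyte genes. Signals summed over 10 granulocyte genes, among them the granule proteins Mpo, Ltf and Camp, were 228528, 79799, 160185, 21435, 20668 and 11246 in marginal tumours 1 to 6. In transitional tumours 1 to 5 the sums were 9052, 44956, 44276, 175430.4 and 99792. Within the marginal class the order of these sums was the order of the Cd14 signals. Sums over 10 erythroid genes were also highest in transitional tumours 4 and 5 (104067 and 86902) and in marginal tumours 3 and 1 (75355 and 66327), and lowest in transitional tumour 1 (2413). The part of granulocyte or erythroid cells in the Cd14 and Slc40a1 signals was not tested.

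Cd5l was brightest on marginal tumour 2, which also ranked high for C1q, Csf1r and Hmox1, and Marco on marginal tumour 6. Cd5l ran from 25.2 to 616 in the marginal class, with a median of 161, and read 48.6, 587, 594, 98.5 and 118 in transitional tumours 1 to 5. Marginal tumour 2 and transitional tumours 2 and 3, all from animals that had failed to nest, were the 3 brightest, whereas marginal tumour 3 and transitional tumours 1, 4 and 5 bore the same clinical sign at lower signals. Its class difference was 0.36 (SE 0.75, limma adjusted p = 0.999).

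Marco was dim on most arrays. Its signals in marginal tumours 1 to 6 were 2.8, 7.8, 74.5, 6.5, 4.8 and 434, and in transitional tumours 1 to 5 they were 6.5, 110.0, 111, 6.6 and 7.4. On 7 of the 11 arrays the signal was under 10, and marginal tumour 6 was highest with nearly level transitional tumours 2 and 3 next. The mean of the Marco probe set lay below the filter on dim probe sets, so it was not tested. Marginal tumour 6 is the only tumour with flow cytometry in the labels, recorded as positive for B220, CD5 and CD11b. Its signal of Itgam, which encodes CD11b, was 59.6, the lowest of the 11 arrays, against 1947 on marginal tumour 1. An RNA signal of a whole sample and a protein seen on cells are unlike measures, so this signal does not bear on the label.

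Between the classes none of these genes passed the test. Of the 13 probe sets tested, covering 8 genes, 0 were called higher and 0 lower in the transitional class by limma at an adjusted p of 0.05, where 0% of all 13576 probe sets tested were called in each direction. At an unadjusted p under 0.05 there were 454 calls over all probe sets, or 3.34%, and none among the 13, whose smallest unadjusted p was 0.151, for a C1qb probe set. Signals of the classes overlapped for all 14 probe sets. Overlap was not counted over all tested probe sets, so this is a description and not a trait of these genes. The transitional mean was higher for 8 of the 13 and lower for 5, with a median difference of 0.07 against -0.06 over all tested probe sets. Without transitional tumour 2 the transitional mean was higher for 5 of 13, with a median of -0.45.

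The tumours differed widely from one another. The SD of log2 signal over the 11 arrays ran from 0.91 for Cd68 to 1.65 for Cd14 among the tested probe sets, with a median of 1.36, against a median of 0.48 over all tested probe sets. Transitional tumour 2 was the highest array for 8 of the 14 probe sets and 4 of the 9 genes (C1qa, C1qb, Csf1r and Cd68), while 8.28% of all tested probe sets were highest there. Marginal tumour 1 was highest for 2 genes (Slc40a1 and Cd14), marginal tumour 2 for 2 (Cd5l and Hmox1) and marginal tumour 6 for 1 (Marco). By the brightest probe set of each gene, transitional tumour 1 was lowest for 5 genes: C1qa, C1qb, Csf1r, Slc40a1 and Cd14. The other C1qb probe sets were lowest on marginal tumours 1 and 4, and the other Csf1r probe sets on marginal tumour 6. On the brightest probe sets, the 2 tumours from severely enlarged spleens, transitional 1 and 2, thus stood at opposite ends for C1qa, C1qb and Csf1r.

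**Figure D2:**
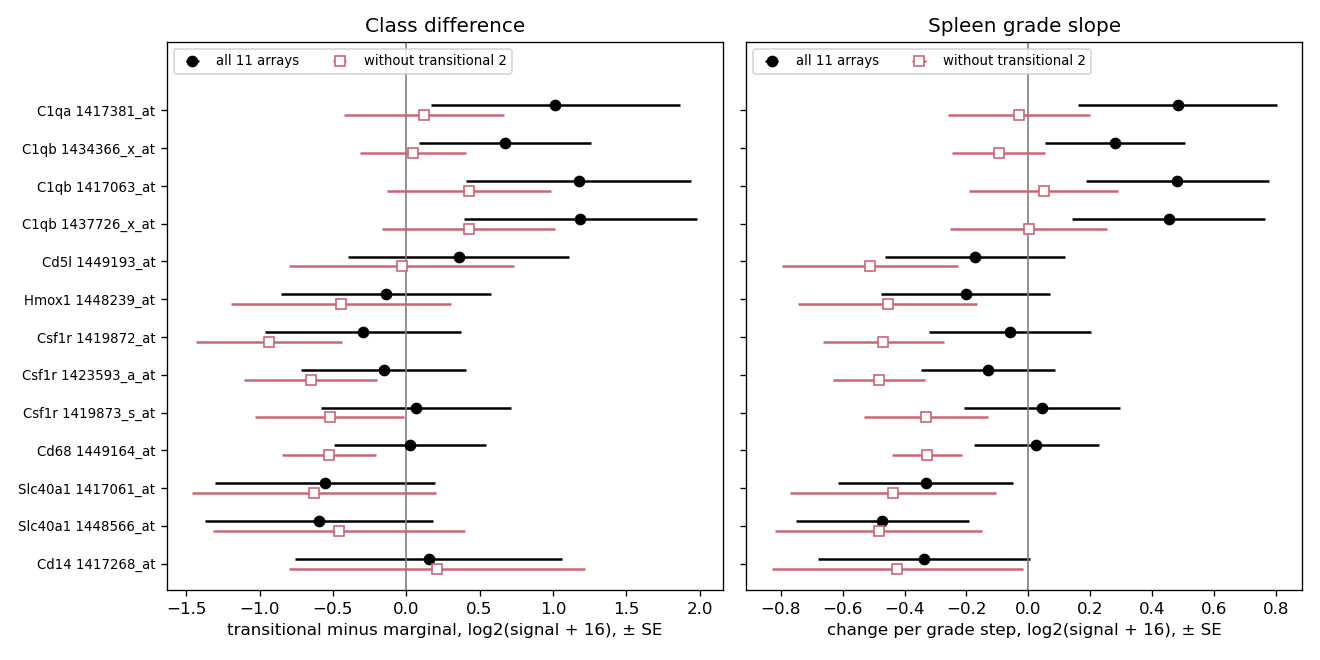
Difference between classes (left, transitional minus marginal, log2) and slope per step of spleen grade (right, log2 per step) for the 13 tested probe sets, as limma estimates with bars of 1 SE, from all 11 arrays and without transitional tumour 2. C1qa moves from 1.02 to 0.12 and the brightest Csf1r probe set from -0.29 to -0.94 when that tumour is left out.

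Spleen grade was then set against signal over all 11 arrays. By limma 0 of the 13 probe sets rose and 0 fell with grade, as did 0% of all tested probe sets in each direction, and 292 of all (2.15%) had an unadjusted p under 0.05. The C1qa slope was 0.48 per grade step (SE 0.32) and that of Cd14 -0.34 (SE 0.34), each with an adjusted p of 0.9996. Slopes were positive for 6 of the 13 probe sets and negative for 7. Without transitional tumour 2, one of the 2 tumours of the severe grade, 2 of 13 were positive and the C1qa slope was -0.03 (SE 0.23). With class in the model 0 of 13 and 0% of all were called in either direction, and 298 of all had an unadjusted p under 0.05; the smallest among the 13 was 0.132, for Cd14 (slope -0.77, SE 0.48).

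**Figure D3:**
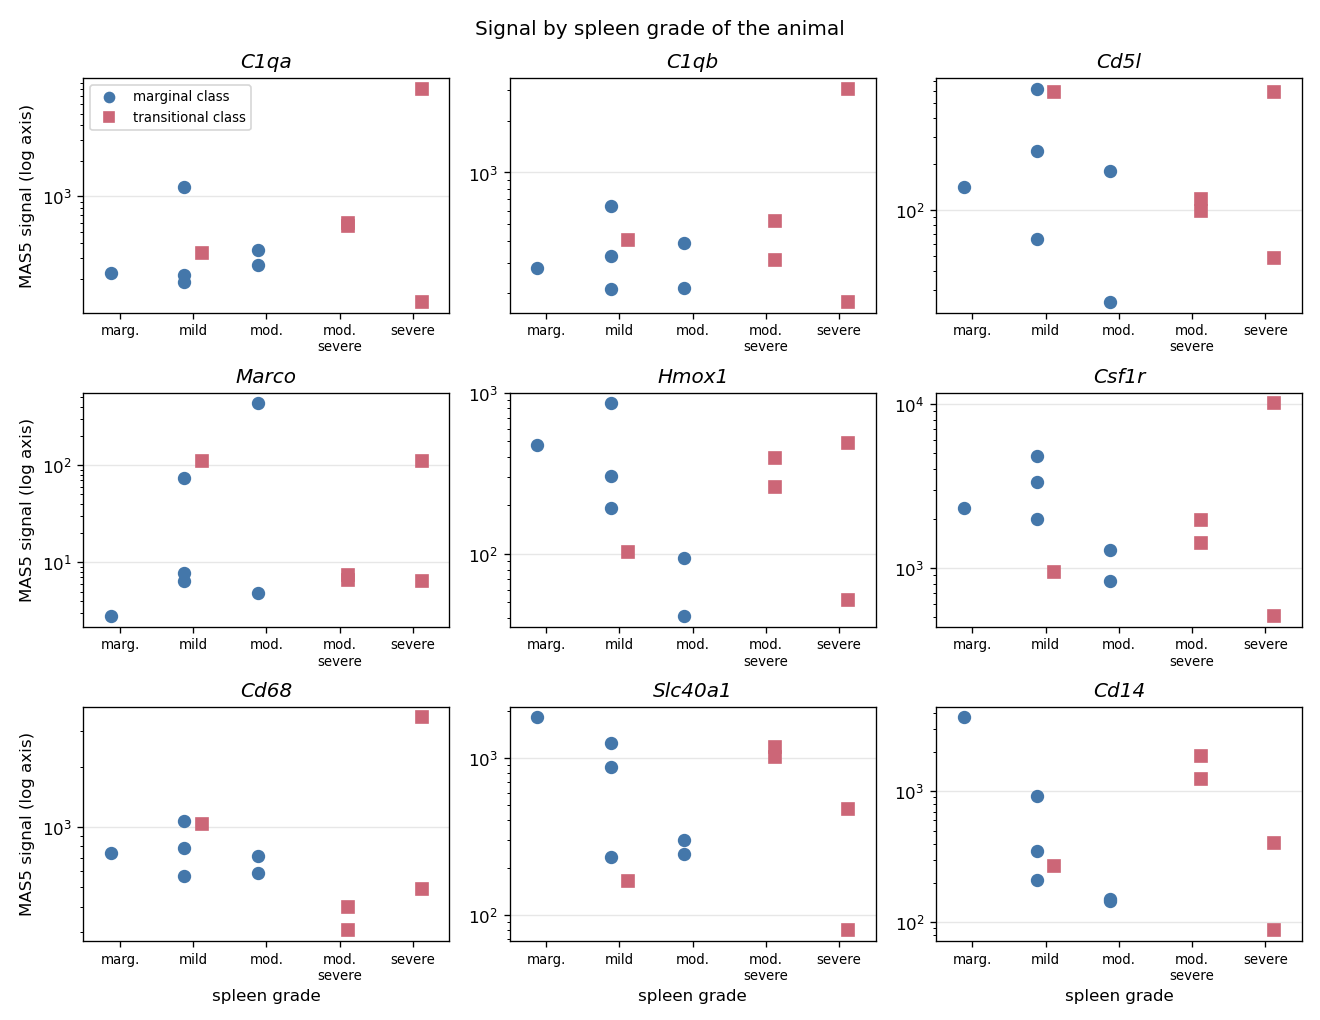
MAS5 signal (log axis) of the brightest probe set of each gene against spleen grade ranked from 1 (marginal) to 5 (severe), each point 1 tumour, coloured by class. At the severe grade C1qa reads 128 and 8059.6; within the marginal class Cd14 declines from 3669.9 at rank 1 to 146 and 150.3 at rank 3.

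Within the marginal class alone, Cd14 and Slc40a1 fell with spleen grade. The slope of Cd14 was -2.09 per step (SE 0.39, limma adjusted p = 0.0344), from a single tumour of rank 1 to tumours of rank 3. One Slc40a1 probe set had a slope of -1.44 (SE 0.29, adjusted p = 0.0430) and the other one of -1.32 (SE 0.38, adjusted p = 0.104). These made 2 of the 13 tested probe sets called lower and 0 called higher, where 1.57% of all tested probe sets were called lower and 0.965% higher. Slopes were negative for 12 of the 13, C1qa being the exception at 0.12 (SE 0.45), and for 47.9% of all tested probe sets. Hmox1 had a slope of -1.49 (SE 0.44, adjusted p = 0.106) and the 3 Csf1r probe sets had slopes of -0.75 to -1.07 (adjusted p from 0.0802 to 0.261).

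Both calls were lost when some of the 6 tumours were left out, while most slopes changed little. The Cd14 slope was -1.38 (adjusted p = 0.328) without marginal tumour 1. It was -2.04 without tumour 3, -2.25 without tumour 5 and -2.24 without tumour 6, with adjusted p of 0.0609, 0.0765 and 0.104. The adjusted p was 0.0470 without tumour 2 and 0.0166 without tumour 4. The Slc40a1 slope was -1.36 to -1.48 without marginal tumours 1, 2, 3, 5 or 6, with adjusted p from 0.0654 to 0.275, and -1.52 without tumour 4 (adjusted p = 0.0166). The granulocyte sums given above fell over the same tumours, from 228528 at rank 1 to 20668 and 11246 at rank 3, and their part in the slopes was not tested.

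Within the transitional class alone no probe set was called, 0% in each direction, and the Cd14 slope was -0.15 (SE 0.61). Without transitional tumour 3, its only tumour of the mild grade, 3279 of all 13576 tested probe sets were called. Among the 13, only Cd14 (slope -2.89, limma adjusted p = 0.0385) and the dimmer Slc40a1 probe set (slope -3.17, adjusted p = 0.0215) were called. These slopes rest on 4 tumours, 2 of rank 4 and 2 of rank 5. The difference of slopes between the classes was itself tested, and 0 of all tested probe sets passed, though 1337 did without transitional tumour 3. Its smallest unadjusted p among the 13 was 0.0428, for a Csf1r probe set (difference 1.59, SE 0.68, adjusted p = 0.444), while 10.8% of all tested probe sets (1462) had an unadjusted p under 0.05. For Cd14 the difference was 1.94 (SE 0.88, adjusted p = 0.468) and for Hmox1 1.70 (SE 0.74, adjusted p = 0.449).

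The genes did not vary as 1 group. Over the 11 arrays, 36 pairs of genes were compared by the log2 signals of their brightest probe sets, 30 with a positive Pearson r. By permutation tests 6 pairs passed an adjusted p of 0.05 for Pearson's r and 3 for Spearman's rho. C1qa and C1qb, chains of the same protein, gave the highest Pearson r, with r = 0.958 (permutation p = 0.00012, adjusted 0.00432) and rho = 0.845 (permutation p = 0.00183, adjusted 0.0329). Without the 2 arrays farthest from the median, transitional 2 and marginal 2, r was 0.742, and within the marginal class it was 0.850.

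Slc40a1 and Cd14 formed the second pair, with r = 0.866 (permutation p = 0.00057, adjusted 0.0103) and rho = 0.809 (adjusted p = 0.0448). Their r was 0.775 without transitional tumour 1 and marginal tumour 1, and 0.851 within the marginal class. Hmox1 and Csf1r were the third, with r = 0.808 (adjusted p = 0.0282), rho = 0.873 (adjusted p = 0.0329), r = 0.803 without marginal tumour 5 and transitional tumour 1, and 0.859 within the marginal class. The relation of C1qa to Csf1r (r = 0.773, adjusted p = 0.0433) rested on 2 arrays: rho was 0.445 (adjusted p = 0.391) and r was 0.219 without transitional tumour 2 and marginal tumour 2. C1qb and Csf1r behaved alike, with r = 0.766 falling to 0.262. Hmox1 and Slc40a1 had r = 0.762 (adjusted p = 0.0491) and rho = 0.691 (adjusted p = 0.163). No correlation is given within the transitional class, which held 5 tumours.

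**Figure D4:**
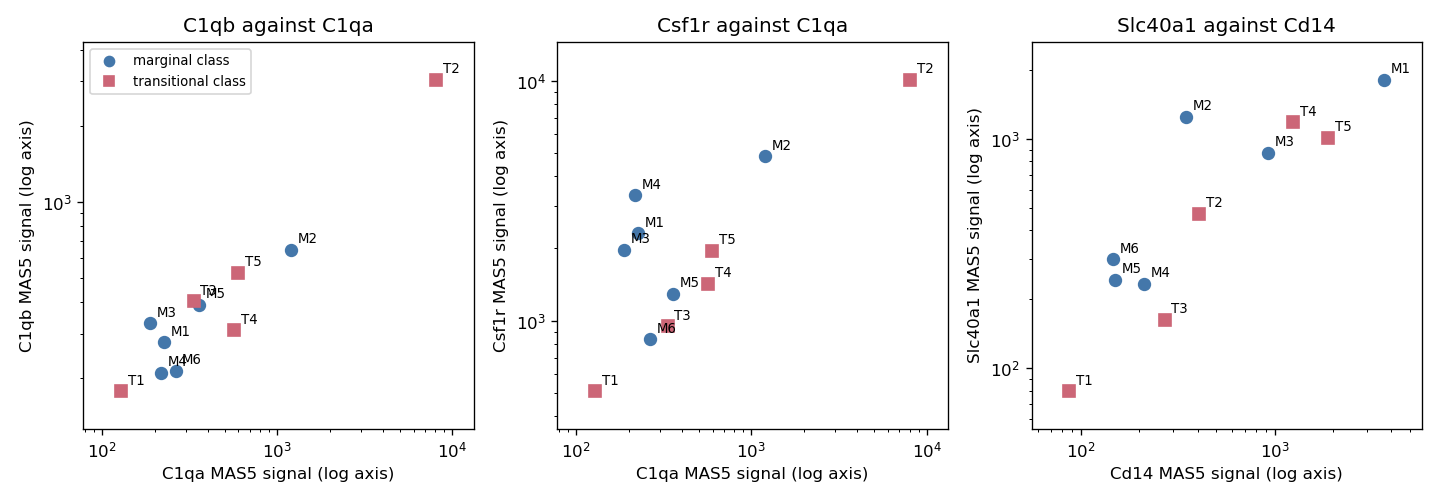
MAS5 signals (log axes) of C1qb against C1qa, Csf1r against C1qa and Slc40a1 against Cd14, each point 1 tumour named by class (M marginal, T transitional) and number. C1qa and C1qb rise together up to T2 (r = 0.958), Csf1r and C1qa are high together on T2 and M2 (r = 0.773), and Slc40a1 and Cd14 are both high on M1, M3, T4 and T5 (r = 0.866).

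Genes outside the group whose signals followed each gene most closely over the 11 arrays are given as a description. For C1qa they were C1qc, the remaining C1q chain (r = 0.983), and Clec4n, which encodes Dectin-2 (0.917). For C1qb they were C1qc (0.932) and Mospd2 (0.919), for Csf1r the transglutaminase gene Tgm2 (0.919) and Clec4n (0.913), and for Cd68 the transcriptional regulator Id2 (0.942) and the glucose-6-phosphate transporter Slc37a4 (0.939). Hmox1 was followed by Fcgr1, the high-affinity IgG receptor (0.906), and the lysosomal protease Ctsb (0.877). Slc40a1 was followed by Sort1 (0.956) and Tnfaip2 (0.955), and Cd14 by Ctbp2 (0.980) and Pnp, purine nucleoside phosphorylase (0.960). Cd5l had Map7 (0.856) and Fmod (0.801) nearest, and Marco Cd320 (0.929) and Smco4 (0.897). None of these values was tested.

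Other genes of the same functions were counted from lists, using 1 probe set for each gene. Of 26 tested genes of other macrophage functions, 0 were called with class or with grade by limma, as was 0% of all tested probe sets. The transitional mean was higher for 19 of the 26 with all arrays and for 8 without transitional tumour 2, and the median difference went from 0.19 to -0.22. Grade slopes were positive for 13 of the 26, and for 4 without that tumour. Over all 7740 tested genes the count of higher means went from 3306 to 3196, and grade slopes were positive for 3392 with all arrays. Transitional tumour 2 was the highest array for 16 of the 26 (61.5%), against 8.77% of all tested genes. C1qc read 4478 there and 872 on marginal tumour 2, the second highest. Msr1, a class A scavenger receptor like Marco, had the smallest class p of the list: it read 657 on transitional tumour 2 and 112.5 or less elsewhere, with a class difference of 1.23 (SE 0.51, adjusted p = 0.999).

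Ctsd, the lysosomal protease cathepsin D, read 7318 on transitional tumour 2, with a class difference of 0.83 (SE 0.44, adjusted p = 0.999). The genes with the smallest grade p in the macrophage list were Spi1 (slope -0.33, SE 0.12) and Itgam (slope -0.56, SE 0.26), each with an adjusted p of 0.9996. Both were brightest on marginal tumour 1. Not every macrophage gene peaked with C1q: Adgre1, the gene of the F4/80 antigen, read 321 on transitional tumour 2 and was highest on marginal tumour 5 at 633.

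Of 19 tested scavenger receptor and lysosome genes, 6 also stand in the macrophage list, so the counts of these lists are not independent. Of the 19, 0 were called, 13 were higher in the transitional class with all arrays and 8 without transitional tumour 2, and 14 (73.7%) were highest on that tumour, 4 of them shared with the macrophage list. Over all 7740 tested genes 0 were called, 3306 were higher with all arrays and 3196 without that tumour, and 8.77% were highest on it. Cathepsin L, Ctsl, read 1195 there and 1104 on transitional tumour 5 (class difference 0.94, SE 0.48, adjusted p = 0.999). Of 14 tested complement genes and receptors, 0 were called, 6 were higher in the transitional class and 3 without transitional tumour 2, and 6 (42.9%) were highest on that tumour. Cfb, complement factor B, named here after its values were seen, read 5997 there and 212 or less elsewhere. In that list Cd55, which limits complement on the cell surface, had the smallest class p, with a difference of -0.92 (SE 0.46, adjusted p = 0.999).

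Of 19 tested genes of haem and iron handling, 0 were called and 8 were higher in the transitional class; 2 were highest on transitional tumour 2. One of these was the ferroxidase gene Cp, which read 2806 there and 158 or less elsewhere, with a grade slope of 0.73 (SE 0.36, adjusted p = 0.9996). Hmox2, the constitutive haem oxygenase, differed by -0.30 (SE 0.23) between classes, and Blvra, which encodes biliverdin reductase A, by 0.24 (SE 0.22). Keap1, the repressor of the Hmox1 activator NRF2, had a grade slope of -0.10 (SE 0.06). In the CSF1 and lipopolysaccharide receptor pathway 0 of 18 were called and 6 were higher in the transitional class. Grade slopes were positive for 3 of the 18, and for 3392 of all 7740 tested genes. Without transitional tumour 2 they were positive for 0 of the 18, a count not made over all genes. The phosphatase gene Inpp5d (-0.64, SE 0.31) and the kinase gene Irak1 (-0.54, SE 0.29) had the smallest class p of that list. The smallest grade p of that list belonged to Spi1 and Csf3r (slope -0.61, SE 0.25), the latter a receptor gene for CSF3 and not for CSF1.

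**Figure D5:**
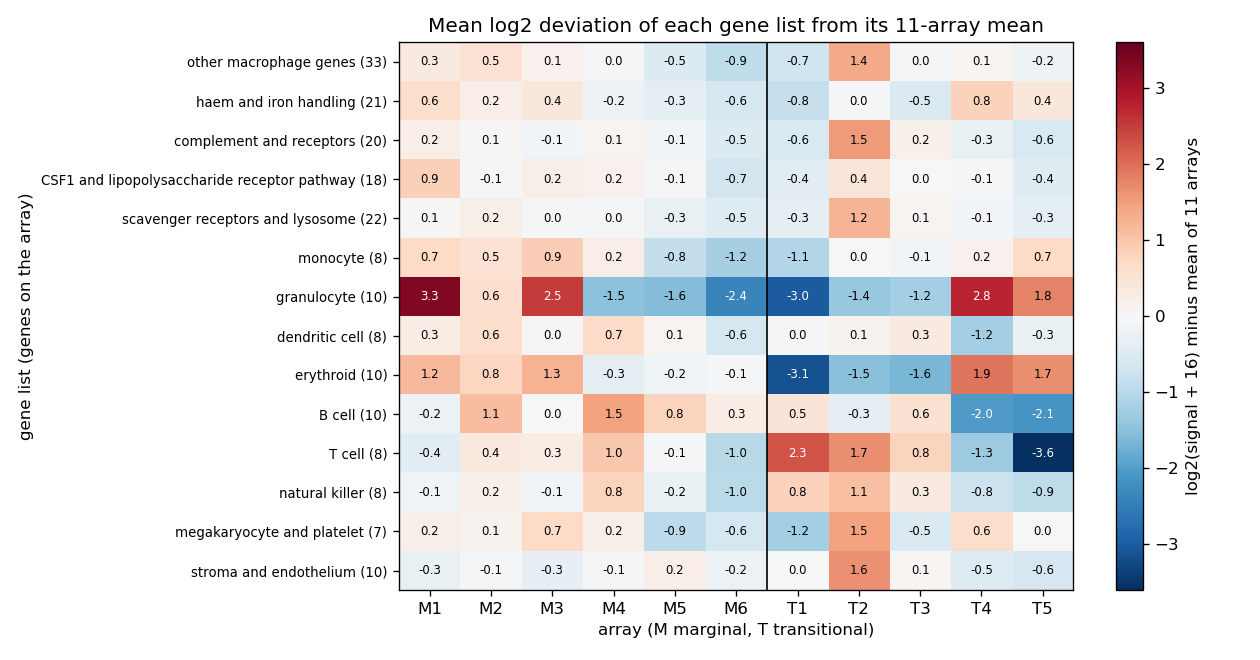
Score of each gene list on each array, the mean over its genes of the log2 signal minus that gene's mean over the 11 arrays, as a heat map with 1 column for each array (M1 to M6 marginal, T1 to T5 transitional). The macrophage list is highest on transitional tumour 2 (1.35), and the granulocyte list on marginal tumour 1 (3.33), transitional tumour 4 (2.75) and marginal tumour 3 (2.53). Other lists score above the macrophage list on transitional tumour 2: T cell (1.66), stroma and endothelium (1.65), complement (1.52) and platelet (1.46).

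Transitional tumour 2 also had the highest sums of platelet and stromal markers. Summed signals of 7 platelet genes were 5538 there and 563 to 2836 on the other arrays. Those of 10 stromal and endothelial genes were 3842 against 333 to 1460, but 1741 of the 3842 was Col1a2. Only 2 of these 10 genes passed the filter on dim probe sets. Col1a1 and the endothelial genes Pecam1 and Cdh5 were not highest on that array, while the remaining genes of the list were. Of these, Tek (38.3 against 37.4 on the next array) and Lyve1 (36.7 against 35.7) were dim and led by very little. The sum of 8 natural killer genes was 9927 there and 915 to 5884 elsewhere, but 4333 of it was Gzmb, and 2 of the 6 tested genes of that list were highest on that array. The natural killer list score was 1.07 on transitional tumour 2 and 0.82 on transitional tumour 1. The sum of 8 T cell genes was 15209 on transitional tumour 2, second to 27078 on transitional tumour 1. Sums over 10 B cell genes ran from 24965 to 89780 in the marginal class and from 6959 to 70693 in the transitional class, with 43979 on transitional tumour 2 and the lowest values on transitional tumours 5 and 4. Sums over 8 monocyte genes ran from 15293 to 31908 in the marginal class and from 13185 to 29799 in the transitional class. On transitional tumour 2 the sum was 14580, of which 7464 was Plac8, and the monocyte list score was 0.01. Sums over 5 liver genes ran from 47.5 to 209. No marker was listed at 0 on any array. The part of these cell types in the signals of C1q, Csf1r and Cd68 was not tested.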

How the data were processed

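Total RNA of 6 marginal and 5 transitional tumours was hybridised to Affymetrix mouse arrays, 1 array each. The deposited values are array intensities that have not been put on a log scale. The submitters' processing notes name MAS5, in a version not given in the sources used here. Their trimmed mean, leaving out 2% at each end, was about equal on all arrays, which hides a shift shared by most transcripts. Array number limits the precision. Labels give a spleen grade and a clinical sign for each tumour but no animal identifiers or batches. The p-values measure the spread between these samples, which may be in part technical, and batches were not tested.

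From these values, 64 control probe sets of 22690 were left out, 16 was added before log2, and the upper 60% by mean (13576 of 22626) were tested with limma 3.58.1 in R 4.3.3 (lmFit, eBayes with trend, two-sided, Benjamini-Hochberg adjusted p 0.05). Genes were named from probe sets with 1 gene in GEO's platform annotation (20380, with 691 naming several and 1555 none), updated to RefSeq symbols of GRCm38.p6. Promoters came from RefSeq, for 4 of the 9 genes. Correlations used 100000 permutations. On simulated data of 13576 probe sets, the class test recovered 30 of 100 differences of 1 on the log2 scale and 77 of 100 of 2. The grade test recovered 59 of 100 slopes of 0.5 and 91 of 100 of 1. These changes were placed on probe sets drawn at random from all tested, whose median SD of log2 signal was 0.48. The 13 tested probe sets described here had a median SD of 1.36, so these rates do not give the recovery for them. Recovery at their spread was not simulated apart.

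The genes, lists, tests and alternatives were chosen with earlier results of these data known. Named list genes are the 2 with the smallest class p and the 2 with the smallest grade p of each of 5 functional lists. Adgre1 and marker genes named as examples were chosen after their values were seen. Alternatives were another offset, no filter on dim probe sets, quantile and median scaling, array weights, the tumour number as a block, fewer grades and tumours, and leaving out each tumour. Counts without transitional tumour 2 were added after seeing the data. Detection calls were not used. Same-numbered tumours of the classes did not deviate together (correlations from -0.452 to -0.088).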

Additional observations from a re-analysis of the deposited data

Results flagged for a closer look

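Single tumours standing apart from the others of their class were looked for in 3 groups of arrays (both classes and the tumours with mild spleen grade) for each of the 14 probe sets, 42 groups in all, on the log2 scale with Dixon's test at the 95% level, which chance passes in about 1 group in 20. There were 2 such results. C1qa in marginal tumour 2, at 1202.8, lay far above the other 5 tumours of the marginal class, which ran from 188 to 355. The Csf1r signal of transitional tumour 2, at 1771.1 on 1 of the 3 Csf1r probe sets, lay far above the other 4 tumours of the transitional class. Both tumours came from animals that had failed to nest, as 7 of the 11 animals had.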

How the results depend on the processing

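No class difference and no grade trend over all arrays was called under any of the alternatives run, for any of the 13576 probe sets or when the filter was changed. With the tumour number as a block, 0 probe sets were called in each of the 4 comparisons, and same-numbered tumours did not pair. Counts of calls moved in 2 comparisons: the grade trend with class ranged from 0 to 1145 and the slope difference from 0 to 1337 over fits leaving out 1 tumour, with both highest counts without transitional tumour 3, and the slope difference reached 4936 with array weights, whose estimate did not converge. Of 415 recomputed values of the 9 genes, 363 kept their direction and side of the threshold and 51 turned direction, none of them past the threshold in the fit over all arrays. The Cd14 class difference became -0.66 with array weights, -0.14 with the block, -0.94 without transitional tumours 4 and 5, and -0.24 among animals that failed to nest. The animals that failed to nest were those of marginal tumours 2 and 3 and of all transitional tumours. In those animals Cd5l was -0.98 and Marco -0.036; Marco was also -0.091 with an offset of 64 and -0.0015 with median scaling. The grade slopes of C1qb and Cd68 were -0.025 and -0.12 within the marginal class, and those of Marco, Hmox1, Csf1r and Slc40a1 were -0.42, 0.21, 0.42 and 0.090 within the transitional class. The Slc40a1 class difference was -1.50 with array weights, -1.54 without transitional tumours 4 and 5 and -1.40 among animals that failed to nest. Another Csf1r probe set gave a class difference of 0.069 and a slope of 0.043. Over fits leaving out 1 tumour, class differences ranged from 0.12 to 1.57 for C1qa, 0.044 to 1.04 for C1qb, -0.95 to -0.039 for Slc40a1, -0.33 to 0.76 for Cd14, -0.035 to 0.77 for Cd5l, -0.53 to 0.34 for Cd68, -0.94 to 0.13 for Csf1r, -0.55 to 0.28 for Hmox1 and -0.37 to 0.67 for Marco. Grade slopes ranged from -0.029 to 0.91 for C1qa, -0.095 to 0.55 for C1qb, -0.49 to 0.035 for Cd14, -0.51 to 0.0092 for Cd5l, -0.33 to 0.13 for Cd68, -0.47 to 0.22 for Csf1r, -0.45 to 0.015 for Hmox1 and -0.17 to 0.23 for Marco. The cause of these changes was not tested. With 11 arrays, differences of the size of the SEs given could not be resolved, and neither could some larger ones. Msr1, for example, differed by 1.23 between classes (SE 0.51) at a limma adjusted p of 0.999. The signal over background of Marco is unknown on most arrays.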

Other observations

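Transitional tumour 2 carried further signals that the lists above touch only as sums, and these genes were chosen after their values were seen. The collagen gene Col1a2 read 1741 on that array and 35.1 to 116 on the others, whereas Col1a1 was dim throughout, at 53.5 there and 65.7 on transitional tumour 3. Pdgfrb, the receptor of pericytes and fibroblasts, read 664 against 149.7 or less. The vascular adhesion gene Vcam1, which red pulp macrophages also express, read 8522. Gzmb, a granule protease of cytotoxic lymphocytes, read 4333 against 612 or less, and the perforin gene Prf1 was also highest there. Other genes of cytotoxic cells were not: Gzma read 134 against 441 on transitional tumour 3, and Ncr1 15.7 against 177 on marginal tumour 2. The platelet chemokine gene Pf4 read 1963 there and 1049 on marginal tumour 1. These values are 1 array each and were not tested.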
